A study of Homo sapiens with 8 samples.

Results

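The day 7 list of accessible regions was set against the day 3 list, both from G401 cells in which SMARCB1 had been switched on. A list is the set of peaks called from an ATAC-seq day, and the members were all 117606 peaks of day 3 and all 103182 peaks of day 7, 220788 of the 411408 peaks in the series. A day 3 peak was counted as lost when no day 7 peak overlapped it by at least 1 bp, and a day 7 peak as gained when no day 3 peak overlapped it. Members were then split by whether they overlapped a peak of the day 0 list, taken before induction. The day 0 list was matched to its day by elimination, since its name is not spelled out in the labels, and the split rests on that match.

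G401 is an established cell line derived from a malignant rhabdoid kidney tumour. The cells carried a stably integrated SMARCB1 that doxycycline switches on. Day 0 cells are labelled SMARCB1 -/-, and cells given 1 µg/ml doxycycline for 1, 3 or 7 days are labelled SMARCB1 +/+, so days 3 and 7 share genotype and drug and differ in time under it. Each day had 2 replicates of 100000 cells, but the deposited values are 1 list per day. Replicate error could not be measured and no p-value is given. The 95% intervals cover counting error alone, over peaks for a share and over reads for a summit ratio. Whether the line is 1 clone is not stated in the labels used here, and the 8 samples include no doxycycline control without the transgene, so time under SMARCB1 and time under the drug cannot be told apart. The identity of the cells was not checked against marker genes, because the reference at hand belongs to another genome build than the hg19 of the peaks. For the same reason genes and motifs at the regions were not analysed here.

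SMARCB1 is a core subunit of SWI/SNF, a complex that uses ATP to slide and evict nucleosomes. Rhabdoid tumours are defined by its loss, and its return is known to stabilise the complex on distal enhancers, where it works beside sequence-specific factors such as AP-1. ATAC-seq reads out the result, since a transposase inserts adapters where nucleosomes have been cleared, and a region's summit is the position with the most inserted fragments. Day 3 peaks without a day 0 peak were thus called only after induction, and those with one were open beforehand. The series is framed by its title around how SWI/SNF and AP-1 together shape enhancers, and the comparison of days 3 and 7 addresses what became of that opening with longer induction.

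Depth was similar but not equal. The genome-wide background, the number of reads per position that the peak caller expected outside peaks, was 6.73 on day 3 and 6.10 on day 7, a ratio of 0.906. The median summit was 52 reads on day 3 and 48 on day 7, and the smallest was 17 and 18. Summits are given below as multiples of the genome-wide background of their own list, called scaled summits. The fold of a peak is the authors' value, which divides the summit by the local background instead.

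Between day 3 and day 7 the accessible landscape shrank mostly where no peak had stood before induction. Of the 117606 day 3 peaks, 28081 had no day 7 counterpart, a background of 23.9%. Among the 49181 day 3 peaks without a day 0 peak, 22815 were lost (46.4%, 95% exact interval 45.9 to 46.8). Among the 68425 with a day 0 peak, 5266 were lost (7.70%, 7.50 to 7.90). Regions without a day 0 peak made up 41.8% of the day 3 list and 81.2% of its losses. In covered length, 7.25 of 21.5 Mb (33.7%) was in lost peaks without a day 0 peak, against 1.70 of 48.5 Mb (3.503%) with one.

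Gains were fewer and lay in the same class. Of the 103182 day 7 peaks, 12859 overlapped no day 3 peak, a background of 12.5%. They were 9786 of 36734 day 7 peaks without a day 0 peak (26.6%, 26.2 to 27.1) and 3073 of 66448 with one (4.62%, 4.47 to 4.79). Losses outnumbered gains 2.33 to 1 without a day 0 peak and 1.71 to 1 with one. The number of peaks decreased by 12447 without a day 0 peak and decreased by 1977 with one. The balance with a day 0 peak turned round when each list was limited to its 80000 peaks of highest -log10 q. Losses there were then 3390 against 5430 gains, and the class grew from 56803 to 59046 peaks, while without a day 0 peak losses still outnumbered gains, 1.43 to 1. Turnover in both directions was more frequent where no day 0 peak stood, by a factor of 6.03 for losses and 5.76 for gains, or 6.01 and 3.02 in lists of equal length. For comparison, 29.4% of day 1 peaks without a day 0 peak and 6.17% of those with one had no day 3 counterpart. That is a lower share in the preceding step, which shares the day 3 list, but the steps are not alike. Day 1 peaks were looked up in the longer and deeper day 3 list, and day 3 peaks in the shorter day 7 list. The earlier step also spans fewer days, and its share in lists of equal length was not computed.

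Lost peaks were weak and narrow in both classes. Lost day 3 peaks without a day 0 peak had a median fold of 2.98, a median summit of 30 reads and a median width of 283 bp, against 3.88, 46 reads and 482 bp for those kept. Those with a day 0 peak had 2.92, 34 reads and 292 bp where lost, and 4.55, 76 reads and 613 bp where kept. A fold under 4 was found in 91.0% and 90.5% of the lost peaks of the classes without and with a day 0 peak. Gained peaks resembled lost ones, with a median fold of 3.03 and a median width of 258 bp without a day 0 peak, and 2.90 and 277 bp with one. Few lost peaks had a day 7 peak close by: 2102 of the 22815 lost peaks without a day 0 peak and 631 of the 5266 with one had a day 7 peak within 500 bp. This measures position only, and how near a lost peak came to the calling limit on day 7 is not recorded. At the edge of the rule, 170 lost peaks lay under 50 bp from a day 7 peak, with a median fold of 2.71, and 157 shared pairs overlapped by under 50 bp, with a median day 3 fold of 2.72.

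Since peaks without a day 0 peak were weaker on day 3, losses were compared within ranges of several measures of strength. In every range of day 3 fold the class without a day 0 peak lost more. With a day 3 fold of 3 to 4, 51.6% (50.8 to 52.3) of 16728 were lost, against 12.0% (11.5 to 12.6) of 15260 with a day 0 peak. With a fold of 4 to 5 the shares were 24.4% and 3.58%, and with a fold of 5 to 6 they were 8.88% and 0.565%. Above a fold of 8, 5 of 1071 were lost without a day 0 peak and 0 of 5307 with one, where a count of 0 has an upper exact limit of 0.0695%. Equal fold does not mean equal reads. At a fold of 3 to 4, kept peaks had a median local background of 1.35 times the genome-wide value without a day 0 peak and 2.37 with one. Every range of the day 3 scaled summit gave the same order of classes. At 6 to 8, 36.2% of 8182 were lost without a day 0 peak and 8.20% of 9751 with one. Width also gave this order: at 500 to 700 bp 19.5% and 2.68% were lost, and over 1000 bp 32 of 1720 and 3 of 14952. The day 3 values that sort these peaks also decide whether they were called, so a further sorting used the day 1 summit, which belongs to neither list. Of the day 3 peaks with a day 1 scaled summit of 8 to 10, 21.9% (20.5 to 23.3) of 3419 were lost without a day 0 peak and 5.12% (4.63 to 5.65) of 7325 with one. Above a day 1 scaled summit of 20 the shares were 16.7% (12.7 to 21.2) of 318 and 0.258% (0.188 to 0.345) of 17447. The classes lay closest at the weakest day 1 summits, under 4, with 46.5% and 36.1%. High day 1 summits that were lost stood on a high local background, with a median of 8.11 times the genome-wide value above a day 1 scaled summit of 20, against 4.19 for those kept. The part of that background in the losses was not tested.

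**Figure D1:**
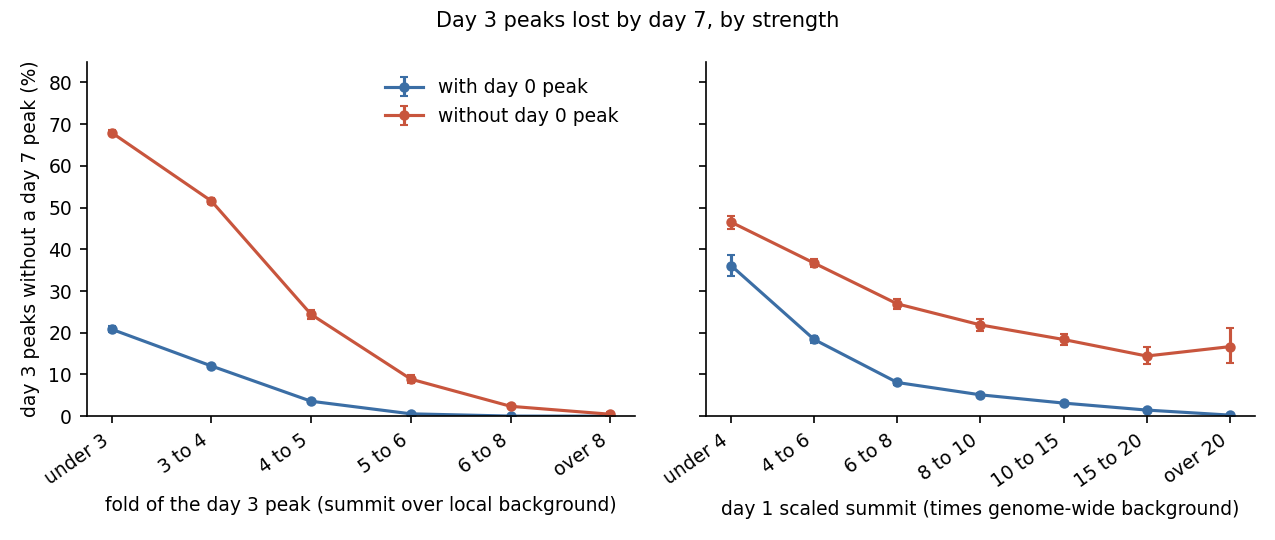
Share of day 3 peaks without a day 7 peak (y axis, percent) by the fold of the day 3 peak (left) and by the day 1 scaled summit at the same place (right), for peaks with (blue) and without (red) a day 0 peak, with exact 95% intervals as bars. The red points lie above the blue ones in every range, for example 24.4% against 3.58% at a fold of 4 to 5.

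Whether a region had already been open on day 1 also separated kept from lost peaks. Without a day 0 peak, 8600 of 28056 peaks that had a day 1 peak were lost (30.7%, 30.1 to 31.2), and 14215 of 21125 that day 3 was the first list to show were lost (67.3%, 66.7 to 67.9). In regions open before induction, 3718 of 65477 with a day 1 peak were lost (5.68%), and 1548 of 2948 without a day 1 peak (52.5%). At a day 3 fold of 3 to 4 without a day 0 peak, 38.4% of 8482 with a day 1 peak were lost, against 65.1% of 8246 without. At a fold over 6 the counts were 76 of 4102 (1.85%) and 4 of 134 (2.99%, 0.819 to 7.47), whose intervals overlap. At a fold of 4 to 5, the losses were 20.0% (18.9 to 21.1) of 5017 peaks with a day 1 but no day 0 peak, and 40.1% (32.7 to 47.9) of 172 with a day 0 but no day 1 peak.

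Strong peaks were seldom lost. At a fold of at least 6, 83 of 21417 day 3 peaks were lost, a background of 0.388%, and 80 of the 83 had no day 0 peak (80 of 4236, against 3 of 17181). At a fold of at least 7 the counts were 17 of 2234 and 0 of 10030. In the other direction 5 of 19229 day 7 peaks with a fold of at least 6 were gained, a background of 0.026%, of which 3 had a day 0 peak and 2 did not.

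The lost peaks with the highest folds had all been open on day 1 as well, whether or not they were open on day 0. This was usual for strong peaks, lost or kept. At a day 3 fold of at least 6, 4102 of 4236 without a day 0 peak had a day 1 peak, and 17180 of 17181 with one. At chromosome 2, 196571199 to 196572034 (hg19), the fold was 7.52 on day 1 and 9.84 on day 3, with 52 and 75 summit reads, and the nearest day 7 peak lay 18.6 kb away. At chromosome 21, 20967716 to 20968699, it was 7.10 and 8.54, with 49 and 65 reads. Chromosome 14, 57142823 to 57144298, held a day 3 peak of 1476 bp with 71 reads and a fold of 8.39, up from 5.82 on day 1. These were wide peaks on a background close to the genome-wide one. Chromosome 6, 142188127 to 142188689, had 38 reads on day 1 and 62 on day 3, and chromosome 16, 12822326 to 12823028, had 61 and 71. All 5 of these regions without a day 0 peak were higher on day 3 than on day 1, but their choice by day 3 fold favours that order. Over all 8600 lost peaks with a day 1 but no day 0 peak, the median scaled summit was 5.13 on day 1 and 5.20 on day 3.

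Among those with a day 0 peak, the highest lost fold was 6.74, at chromosome 7, 64725458 to 64726044, where the summits held 25, 63 and 90 reads on days 0, 1 and 3. Chromosome 2, 156113296 to 156113698, followed a flat course, with 47, 43 and 48 reads and folds of 6.54, 6.25 and 6.34, and then had no day 7 peak within 5597 bp. Chromosome 10, 125625944 to 125626362, had 37, 36 and 47 reads. Chromosome 2, 75652086 to 75652723, had 36, 32 and 45, and chromosome 1, 81720222 to 81720569, had 26, 35 and 44. The number of day 7 reads at a lost peak is not recorded in a peak list, so no ratio is given for it.

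Without a day 0 peak, the gained peaks of highest fold were weaker than the lost ones, and with one the highest folds were alike, 6.76 gained and 6.74 lost. The highest gains without a day 0 peak lay at chromosome 6, 164166901 to 164167305, with 47 reads and a fold of 6.61 on day 7, and chromosome 11, 13139700 to 13140129, with 42 reads and 6.01. Chromosome 3, 124147791 to 124148410, chromosome 5, 59294976 to 59295332, and chromosome X, 26894810 to 26895295, each had 41 reads and a fold of 5.91. None of these 5 had a day 1 peak, so day 7 was the only list to show them. Among gains with a day 0 peak, chromosome 2, 40078591 to 40079315, had 23 reads on day 0, 25 on day 1, no day 3 peak and 47 reads on day 7. Chromosome 3, 112960366 to 112961035, was absent from the lists of days 1 and 3, with 22 reads at day 0 and 65 at day 7. Chromosome 5, 178450526 to 178451212, had 25, 18 and 45 reads on days 0, 1 and 7. Chromosome 9, 122871528 to 122871890, had 25, 28 and 39, and chromosome 3, 164972587 to 164972913, had 27, 28 and 38. All 5 stood higher on day 7 than before induction, but they were chosen by their day 7 fold, which favours that order.

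Most peaks were shared, and these were paired one to one where a single day 3 peak met a single day 7 peak. There were 85307 such pairs, 60214 with a day 0 peak and 25093 without. A further 1970 day 3 peaks met several day 7 peaks and 1208 day 7 peaks met several day 3 peaks. Breaking up was seen in 2.06% of day 3 peaks with a day 0 peak and 1.14% without. These shares are over all day 3 peaks, including lost ones, which cannot break up and were 7.70% and 46.4% of the classes. The shares thus do not compare the classes among kept peaks. With a day 0 peak 1411 broke up beside 60176 paired one to one, and without one 559 beside 25131.

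At shared peaks too, the summits were lower on day 7 where there was no day 0 peak, and near level where there was one. Without a day 0 peak the median scaled summit was 6.84 on day 3 and 5.90 on day 7, and the median log2 ratio was -0.19 (SD over pairs 0.38), a ratio of 0.876. Day 7 was lower in 17420 of 25093 pairs (69.4%). Where a day 0 peak stood, the medians were 11.3 and 11.0, the median log2 ratio was 0.02 (SD 0.25), and day 7 was lower in 27342 of 60214 pairs (45.4%). The authors' fold gave a smaller difference without a day 0 peak, at a median log2 ratio of -0.11. The local background there had a median log2 ratio of -0.04. The median by fold was 0.00 with a day 0 peak.

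Large differences went mostly downward. Summits at least 2-fold lower on day 7 numbered 578 of 85307 pairs, a background of 0.678%, and 518 of them had no day 0 peak (2.06% of that class, against 60 or 0.0996% with one). Summits at least 2-fold higher numbered 49, a background of 0.0574%, 28 without and 21 with a day 0 peak. By fold 88 and 4 pairs were at least 2-fold lower, and 7 and 4 at least 2-fold higher, without and with a day 0 peak.

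**Figure D2:**
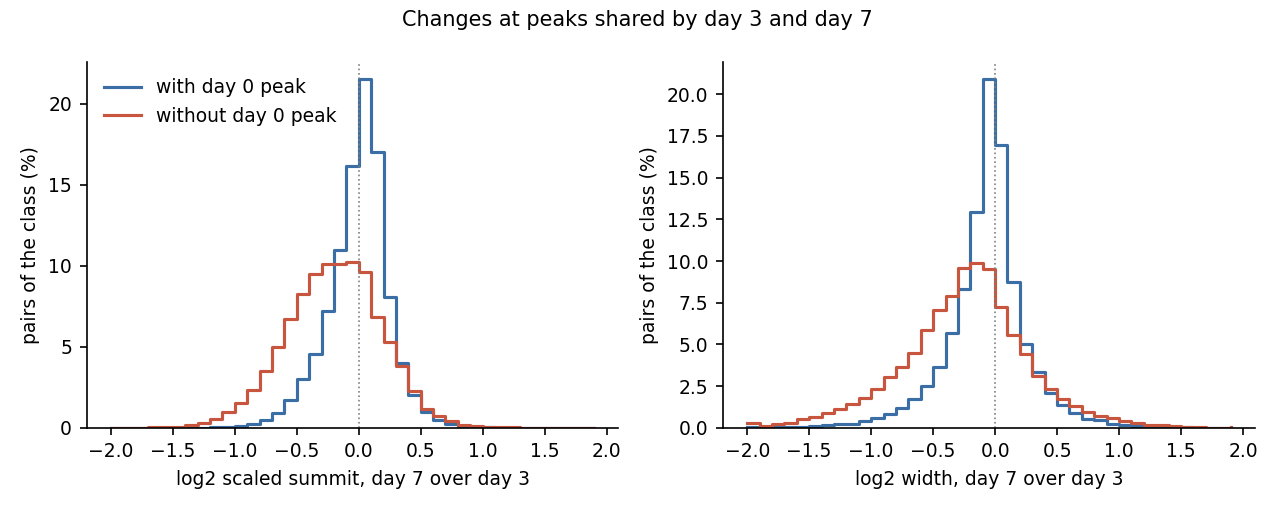
Distribution over one-to-one pairs of the log2 ratio of scaled summits (left) and of widths (right), day 7 over day 3, as percent of the pairs with (blue) and without (red) a day 0 peak in bins of 0.1. Pairs beyond 2 in either direction are in the end bins, and the red curves lie to the left of the blue ones, with medians of -0.19 against 0.02 for summits and -0.21 against -0.04 for widths.

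The higher the day 1 summit had been in regions without a day 0 peak, the lower day 7 stood against day 3. Day 1 enters neither side of the ratio. Below a day 1 scaled summit of 4 the median log2 ratio was -0.06 (2107 pairs), at 6 to 8 it was -0.29 (3884 pairs), at 10 to 15 it was -0.43 (3016 pairs) and above 20 it was -0.52 (241 pairs). In that last range day 7 was lower in 96.7% of pairs. Among pairs with a day 0 peak, no range of day 1 summits had a median beyond 0.09 in either direction, and above 20 it was 0.05 (16369 pairs). By fold the ratios without a day 0 peak levelled off, at -0.18, -0.21 and -0.18 for day 1 summits of 6 to 8, 10 to 15 and above 20. The local background moved with the summit there, with median log2 ratios of -0.10, -0.22 and -0.38. Weak pairs are limited by their choice, since a summit that dropped under the calling limit left the pairs and was counted as lost. Pairs with a geometric mean of the scaled summits under 4 had median log2 ratios of 0.08 without and 0.09 with a day 0 peak.

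Regions that day 3 was the first to show differed from those open since day 1. Without a day 0 peak, the 18538 pairs with a day 1 peak had a median log2 ratio of -0.27 (SD 0.37). Their median scaled summit went from 6.62 on day 1 to 8.02 on day 3 and back to 6.39 by day 7. The 6555 pairs without a day 1 peak had 0.02 (SD 0.32), with medians of 4.75 on both days. At matched scaled summit the gap was absent among the weakest pairs and present above them. Under a geometric mean of the scaled summits of 4, both medians were 0.08 to 0.09, over 893 pairs with a day 1 peak and 1400 without. At 4 to 6 they were -0.16 over 5586 and 0.01 over 3606, at 8 to 10 they were -0.34 over 3092 pairs with a day 1 peak and -0.08 over 331 without, and at 10 to 15 they were -0.39 over 3400 and -0.04 over 159. These ranges match the scaled summit and not the fold. With and without a day 1 peak, the median day 3 fold was 3.87 and 3.62 at 4 to 6. It was 4.86 and 2.67 at 8 to 10, and 5.33 and 2.14 at 10 to 15. Late regions were lost more often than early ones, yet those that stayed in the list had a median height close to that of day 3. A summit that dropped under the calling limit left the pairs, and the part of this in the gap was not tested. Of the 518 pairs at least 2-fold lower, 511 (98.6%) had a day 1 peak, against 73.9% of all pairs of the class. Of the 28 at least 2-fold higher, 22 (78.6%) had none, against 26.1% of the class.

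Among regions open before induction, day 7 was mostly lower than day 3 at those raised at least 1.5-fold on day 1 over day 0. These groups were set by days 0 and 1 and compared on days 3 and 7, so no list is on both sides. The 2309 pairs with a day 1 summit at least 2-fold over day 0 had a median scaled summit of 5.36 on day 0, 15.9 on both days 1 and 3, and 11.6 on day 7. Their median log2 ratio of day 7 over day 3 was -0.42 (SD 0.26), or -0.16 by fold, and 94.6% were lower on day 7. The 3136 pairs raised 1.5- to 2-fold had -0.22 (SD 0.29), the 35032 raised up to 1.5-fold had 0.02 (SD 0.21), and the 18424 that were lower on day 1 than on day 0 had 0.07 (SD 0.22). The median thus moved in one direction across the 4 groups. The return was partial: of the 2309 raised pairs, 1924 (83.3%) stood at least 2-fold over day 0 on day 3 and 1115 (48.3%) on day 7, while 2263 were still above day 0. These last counts use the day 0 value that also chose the group, so they are a description of it.

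**Figure D3:**
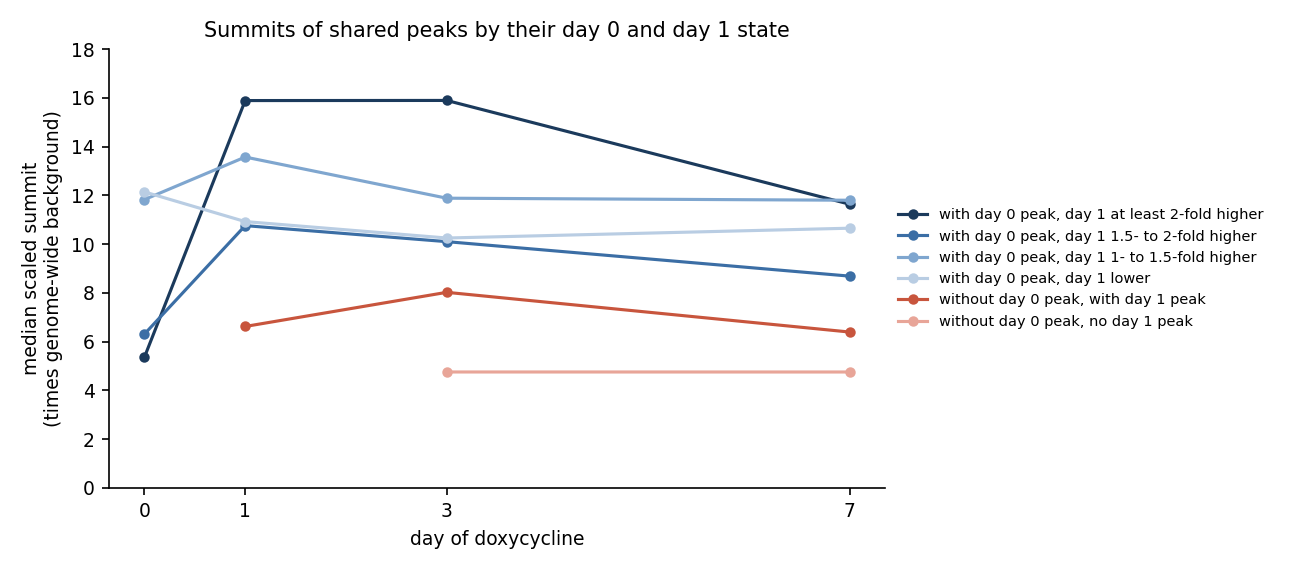
Median scaled summit (y axis, multiples of the genome-wide background) on days 0, 1, 3 and 7 (x axis) of one-to-one pairs, in 4 groups with a day 0 peak (blue, by the ratio of day 1 to day 0) and 2 groups without (red, by whether day 1 held a peak). The darkest line drops from 15.9 on day 3 to 11.6 on day 7 and the darker red line from 8.02 to 6.39, while the pale red line stays at 4.75.

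The extreme pairs with a day 0 peak followed the same course. Of the 60 pairs at least 2-fold lower on day 7, 40 (66.7%) had been at least 2-fold higher on day 1 than on day 0, against 3.83% of all pairs with a day 0 peak. Of the 21 at least 2-fold higher, 15 (71.4%) had been lower on day 1 than on day 0, against 30.6% of all, and 0 had been 2-fold raised.

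Regions are named below among pairs with at least 50 reads at the larger summit, in order of the ratio, so their ratios are the extremes of many and may be overstated. That choice sets the order of days 3 and 7 in each region and favours an extreme day 3 value against the other days. Among pairs with a day 0 peak, the lowest ratio was at chromosome 1, 44977848 to 44978705, with 29, 110, 119 and 36 summit reads on days 0, 1, 3 and 7. Day 7 stood at 0.334 of day 3 (0.223 to 0.488) after scaling, or 0.534 by fold, and the peak narrowed from 858 to 370 bp with nearly equal cuts of 246 and 242 bp at its ends. Chromosome 9, 97418671 to 97419892, had 20, 92, 103 and 32 reads and a ratio of 0.343 (0.223 to 0.514). Chromosome 9, 123286667 to 123287875, had 23, 83, 102 and 33 reads and a ratio of 0.357 (0.233 to 0.533). Chromosome 3, 173689429 to 173690152, had 24, 50, 66 and 22 reads and a ratio of 0.368 (0.216 to 0.604). Chromosome 20, 46402186 to 46403317, had 27, 71, 61 and 22 reads and a ratio of 0.398 (0.233 to 0.657). All 5 were high on days 1 and 3 and low on days 0 and 7.

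Without a day 0 peak, the lowest ratio was at chromosome 12, 51994554 to 51995542, with 72, 84 and 19 reads on days 1, 3 and 7. Day 7 stood at 0.250 of day 3 (0.143 to 0.414), or 0.368 by fold, and the peak narrowed from 989 to 243 bp. Chromosome 16, 78742658 to 78743695, had 39, 94 and 24 reads and a ratio of 0.282 (0.172 to 0.445). Chromosome 8, 1511850 to 1512602, had 50, 83 and 23 reads and a ratio of 0.306 (0.184 to 0.490). Chromosome 8, 28310692 to 28311646, had 85, 93 and 26 reads and a ratio of 0.308 (0.192 to 0.481). Chromosome 5, 94132013 to 94132798, had 75, 82 and 23 reads and a ratio of 0.309 (0.186 to 0.496). Each interval ended below 0.5, and on day 7 each summit stood at 19 to 26 reads, near the smallest summit of 18 in that list.

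The highest ratios with a day 0 peak belonged mostly to regions that were lower on days 1 and 3 than before induction. Chromosome 7, 38916194 to 38916914, had 131, 64, 46 and 111 reads on days 0, 1, 3 and 7, and day 7 stood at 2.66 times day 3 (1.87 to 3.84), or 1.499 by fold. Chromosome 13, 100887569 to 100888440, had 102, 54, 45 and 92 reads and a ratio of 2.26 (1.56 to 3.298). Chromosome 2, 178563086 to 178564004, had 91, 50, 34 and 68 reads and a ratio of 2.21 (1.44 to 3.44). Chromosome 18, 23899496 to 23900003, had 93, 56, 37 and 72 reads and a ratio of 2.15 (1.42 to 3.28). These 4 were lowest on day 3, and on day 7 they were higher again but still under day 0. The fifth, chromosome 10, 61696159 to 61696938, differed, with 38, 54, 32 and 62 reads and a ratio of 2.14 (1.37 to 3.39).

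The highest ratios without a day 0 peak were all at regions with no day 1 peak. Chromosome 16, 86958944 to 86959645, held 26 reads at its day 3 summit and 66 at its day 7 summit, a ratio of 2.80 (1.75 to 4.59), or 1.81 by fold. Chromosome 5, 95033522 to 95034484, had 38 and 82 reads and a ratio of 2.38 (1.60 to 3.596). Chromosome 1, 181185613 to 181186153, and chromosome 6, 109493227 to 109493876, each had 26 and 55 reads and a ratio of 2.33 (1.44 to 3.88). Chromosome 5, 21680004 to 21681511, had 26 and 54 reads and a ratio of 2.29 (1.41 to 3.81). The absence of these 5 from the day 0 list and their higher summit on day 7 than on day 3 follow from how they were chosen. Their absence from the day 1 list was not part of the choice.

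**Figure D4:**
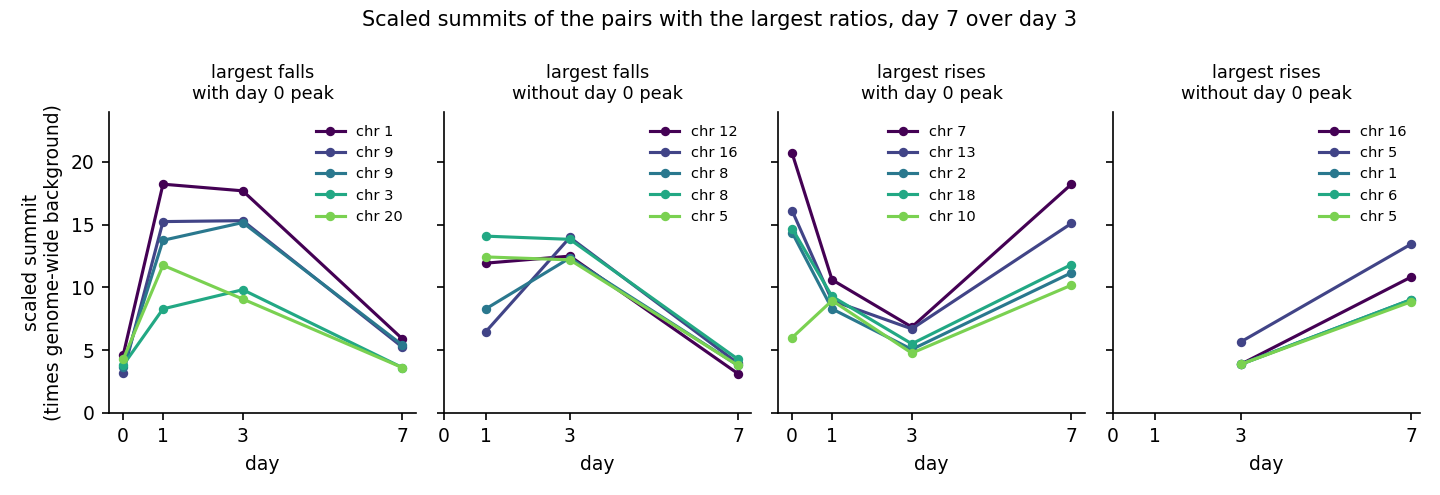
Scaled summits (y axis, multiples of the genome-wide background) on days 0, 1, 3 and 7 (x axis) of the 5 pairs with the lowest and the 5 with the highest ratio of day 7 over day 3, with and without a day 0 peak, each line 1 region named by its chromosome and drawn only on days with a peak. The regions lower on day 7 with a day 0 peak form an arch over days 1 and 3, and 4 of the 5 higher ones form a trough with its low point on day 3. The order of days 3 and 7 is set by the choice of regions.

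Called peaks were mostly narrower on day 7 in both classes, also with a day 0 peak, where the scaled summits were near level. Widths, unlike summits, were not scaled for depth. The day 7 list was the shallower one, and its smallest -log10 p was 3.88, against 3.64 on day 3. The part of depth and calling limit in the narrowing was not tested. Without a day 0 peak the median width went from 482 to 395 bp, with a median log2 ratio of -0.21 (SD 0.52), and 70.3% of pairs were narrower. Those with a day 0 peak went from 606 to 575 bp, with -0.04 (SD 0.34), and 59.4% were narrower. Called length in the pairs was 15.2% less on day 7 without a day 0 peak and 3.79% less with one. Both ends moved inward in 44.6% of pairs without and 32.3% with a day 0 peak, and both outward in 11.6% and 17.7%. The median cut was 32 bp at the left and 31 bp at the right end without a day 0 peak, and 7 and 8 bp with one. Peaks at least 2-fold narrower numbered 2674, a background of 3.13%, and 1849 of them had no day 0 peak (7.37%, against 1.37% with one). Peaks at least 2-fold wider numbered 663, a background of 0.777%, at 1.35% and 0.538%. Across pairs, the log2 ratios of summit and width had a Pearson r of 0.50 without and 0.39 with a day 0 peak. This is a description over 25093 and 60214 pairs that share both lists, and a caller draws a wider peak around a higher summit.

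Summit positions moved little. The median distance between the day 3 and day 7 summit of a pair was 53 bp without and 30 bp with a day 0 peak, and 27.0% and 19.5% moved by more than 100 bp. Among pairs with at least 50 reads at the larger summit the medians were 40 and 25 bp.

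The pairs with the smallest ratio of widths lost one side more than the other. At chromosome 3, 168720464 to 168721667, without a day 0 peak, the width went from 1204 to 203 bp, with 171 bp cut at the left and 830 bp at the right end, and the summit moved by 2 bp. At chromosome 11, 84130598 to 84131780, it went from 1183 to 222 bp, with cuts of 582 and 379 bp. At chromosome 11, 8742329 to 8743589, 1060 bp was cut at the left end and the summit moved by 896 bp, from 1 part of a wide peak to another. Among pairs with a day 0 peak, chromosome 22, 40060382 to 40061598, went from 1217 to 208 bp while its summit held 53 and 34 reads, a ratio of 0.708 (0.446 to 1.11) that includes no change. Chromosome 18, 30128586 to 30129638, went from 1053 to 210 bp, and chromosome 20, 46402186 to 46403317, from 1132 to 252 bp. The largest widening with a day 0 peak was at chromosome 6, 122690122 to 122691362, from 243 to 1241 bp, followed by chromosome 14, 100858577 to 100859489, from 217 to 913 bp, and chromosome 1, 172347104 to 172347907, from 214 to 804 bp. Without one it was at chromosome 5, 21680004 to 21681511, from 328 to 1508 bp, then chromosome 10, 61738256 to 61739306, from 241 to 1051 bp, and chromosome 1, 8149976 to 8150751, from 214 to 776 bp.

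Distance to the day 0 landscape gave opposite orders on the 2 scales of strength. Among day 3 peaks without a day 0 peak and with a scaled summit of 6 to 10, 49.6% (47.2 to 52.0) of 1712 under 1 kb from the nearest day 0 peak were lost. At 1 to 10 kb the share was 39.3% of 7017, at 10 to 100 kb 15.9% of 4402, and beyond 100 kb 9.77% (6.86 to 13.4) of 348. When fold was held at 3 to 4 instead, the shares were 39.3% of 1124, 47.8% of 7200, 56.2% of 7700 and 58.5% (54.8 to 62.2) of 704. The local background of the first set moved with distance, with medians of 2.89, 2.26 and 1.37 times the genome-wide value in the 3 nearer ranges. Over all strengths the shares were 52.2%, 48.6%, 43.0% and 41.4%. Shared pairs had median log2 summit ratios of -0.13, -0.21, -0.19 and -0.15 from the nearest to the farthest range, which showed no steady order.

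Losses without a day 0 peak were somewhat more frequent beside each other. Each pair of neighbouring day 3 peaks within 10000 bp was counted from both sides. A peak with several neighbours thus entered more than once, and the counts are of entries and not of peaks. Where neither had a day 0 peak, 47.5% of 11888 entries were lost beside a lost neighbour and 39.9% of 15628 beside a kept one. Where both had a day 0 peak, the shares were 9.602% of 3895 and 7.18% of 49051. Runs of consecutive lost day 3 peaks were short: 5362 runs held at least 2 peaks, 109 at least 5 and 5 at least 7. The longest, chosen after the values were seen, was 9 lost peaks over 76.8 kb at chromosome 1, 155397051 to 155473834, where 1 had a day 0 peak and the highest fold was 4.17. Next was a run of 8 over 86.3 kb at chromosome 12, 372809 to 459106, with 0 day 0 peaks and folds up to 4.89. A run of 7 at chromosome 7, 133250963 to 133427879, included a fold of 6.005. In windows of 1 Mb with at least 40 day 3 peaks lacking a day 0 peak, 273 in all, the share lost had a median of 46.3%. The highest, also seen first and named after, was 31 of 45 at chromosome 3, 195000001 to 196000000 (68.9%, 53.4 to 81.8), and the lowest 12 of 56 at chromosome 5, 153000001 to 154000000 (21.4%, 11.6 to 34.4).

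Every chromosome had the same order of classes, with Y left out for its few peaks. The share of day 3 peaks lost was 44.1% to 56.2% without a day 0 peak and 6.57% to 9.97% with one. Chromosome 19 was highest without a day 0 peak at 56.2% (53.2 to 59.2), followed by chromosome 22 at 53.9% (50.8 to 57.0), X at 52.7% (49.4 to 55.9) and 17 at 51.1% (48.9 to 53.3). Chromosome 11 was lowest at 44.1% (42.1 to 46.1). On chromosomes 19, 22 and 17 these peaks had high local backgrounds and low folds, with median backgrounds of 1.98, 1.89 and 1.80 times the genome-wide value and median folds of 2.83, 2.92 and 2.99. X did not share this, with a median fold of 3.75 and the lowest median scaled summit of the 4, 4.75. The part of these values in the losses was not tested. At shared pairs without a day 0 peak, the median log2 summit ratios ran from -0.27 on X to -0.16 on chromosome 1.

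**Figure D5:**
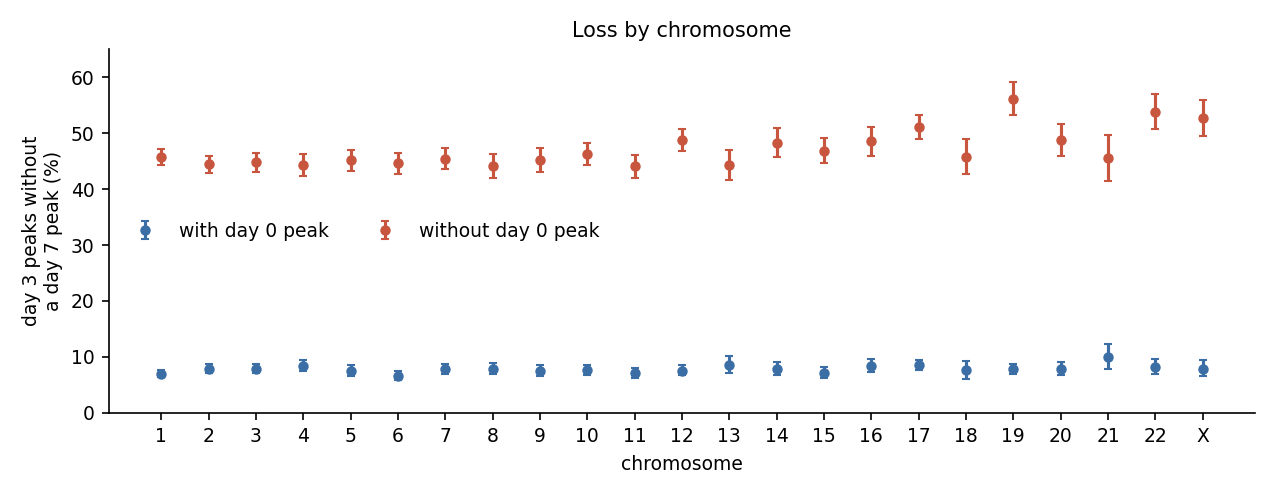
Share of day 3 peaks without a day 7 peak (y axis, percent) on each chromosome (x axis, Y left out) with (blue) and without (red) a day 0 peak, with exact 95% intervals as bars. Red points span 44.1% to 56.2%, highest on chromosome 19, and blue points 6.57% to 9.97%.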

How the data were processed

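The source was 1 deposited file of narrowPeak layout joining 4 peak lists. Per the submitters' processing notes, Bowtie2, deepTools and MACS2 version 2.1.1.20160309 were used with build hg19. Read filters, any transposase offset and the pooling of replicates are not given in the sources used. Per peak, the deposited file gives a score, a fold (ratio of summit to local background), -log10 p and q (p-value, q-value) and a summit offset in bp, all by the authors' peak caller. The smallest -log10 q was 2.01 on day 3 and 2.19 on day 7.

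Summit reads were recovered from fold and -log10 p, with 1 added to reads and to background in the fold, and a Poisson tail for p. A whole number fitted all 411408 peaks within 0.005 in -log10 p. The background most shared in a list (20.9% of day 3 and 18.6% of day 7 peaks) was its genome-wide background. Tested on simulated data, this gave back the true reads of 100% of 13350 peaks. Overlaps were checked with bedtools 2.31.1. Shares have exact Clopper-Pearson intervals and summit ratios exact conditional binomial intervals. In the day 7 list 191 peak numbers are missing, and 36 lost day 3 peaks (0.128%) lie where one is.

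The named regions are, in each day 0 class, the 5 lost and 5 gained peaks of highest fold, the 5 lowest and 5 highest summit ratios and the 3 lowest and 3 highest width ratios. Members, lists and rules were chosen with earlier results of these data known. Gene lists and motifs had been planned and were not analysed here. Coordinates are 1-based. Python 3.11.15, NumPy 2.4.6, pandas 2.3.3, SciPy 1.17.1 and matplotlib 3.10.9 were used.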

Additional observations from a re-analysis of the deposited data

How the results depend on the processing

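Shares are given here for all peaks, those with and those without a day 0 peak, in that order. Losses were 29.9%, 12.1% and 54.5% with a reciprocal overlap of 50%, 21.6%, 6.77% and 42.1% with gaps of up to 500 bp counted as shared, 22.0%, 8.19% and 45.4% at a -log10 q of at least 5, 0.388%, 0.0175% and 1.89% at a fold of at least 6, and 14.6%, 5.97% and 35.9% with the 80000 highest -log10 q of each list. Gains were 20.05%, 9.57% and 39.0%, then 10.7%, 3.82% and 23.04%, then 11.0%, 5.08% and 24.3%, then 0.026%, 0.0176% and 0.0898%, then 14.1%, 9.20% and 27.7% under the same settings. With lists of equal length, the overall gap between losses and gains was therefore nearly gone, since the number lost and gained can then differ only through peaks that meet several others, and with a day 0 peak gains outnumbered losses, 1.60 to 1. Shares without a day 0 peak were then 6.01 times those with one for losses and 3.02 times for gains. A day 0 class set by a day 0 peak within 500 bp gave losses of 9.30% with one, and gains of 5.50% with and 26.2% without one. Dropping the day 3 peaks that would miss the p limit of day 7 at its depth, an alternative chosen after seeing the data, left losses at 23.8%, 7.69% and 46.3%. At shared peaks, the median log2 summit ratio without a day 0 peak was -0.21 when that of pairs with one was set to 0, -0.11 by fold and -0.39 with at least 50 reads. With a day 0 peak it was 0 after that centring, 0.0034 by fold and 0.019 with at least 50 reads. The median log2 width ratio with at least 50 reads was -0.037 with and -0.26 without a day 0 peak. By fold, pairs at least 2-fold lower numbered 4 with and 88 without a day 0 peak, and pairs at least 2-fold higher 4 and 7. With at least 50 reads, 11 and 12 were at least 2-fold higher. The causes of these shifts were not tested. No median log2 ratio changed sign, and the balance of losses and gains turned only with lists of equal length and a day 0 peak, apart from 3 against 3 at a fold of at least 6. No paired analysis was possible because the file holds 1 list per day and no value per sample, and for the same reason no replicate could be left out. Lost peaks without a day 0 peak had a median of 30 reads, so the depth limits what a single weak peak shows.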
